A study of Mus musculus with 12 samples.

Results

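MOF-bound regions of megakaryocyte-erythroid progenitors (MEP) were compared between wild-type and Mof heterozygous mice. MEP are the bone marrow progenitors of red cells and platelets. The regions came from 1 chromatin immunoprecipitation (ChIP-seq) library per genotype: every summit of the wild-type list, widened by 150 bp on each side, and every interval of the heterozygous list, on chromosomes 1 to 19 and X without the first 4 Mb of chromosome 9. This kept 829 of 898 wild-type summits and 59 of 64 heterozygous intervals, together 888 of the 962 regions in both MEP lists and of the 3653 regions in the 5 peak lists of the series. A wild-type site that overlapped a heterozygous interval by at least 1 bp was counted as called again, or shared. The others were wild type only or heterozygous only.

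Both groups were C57BL/6 mice, of the genotype Wild type or Mof -/+, whose ages the sources do not state. Bones were pooled, and 30000 MEP were sorted for each library by the gate cKit+, Lineage-, Sca-1-, CD16/32-, CD34- and IL7r-. Lists from 15000 sorted haematopoietic stem cells (HSC) of each of these genotypes, and a GATA1 list from HPC7, a cultured wild-type progenitor line, served for comparison. Peak lists do not measure expression, so neither the MEP identity nor the genotype could be checked with marker genes. Read depth is unknown and no group had a replicate, so no difference below has a replicate check or a p-value. The intervals given with shares are 95% Wilson intervals for counting error alone. A site that was not called is not shown to be unbound.

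MOF, encoded by Kat8, is the main acetyltransferase of lysine 16 of histone H4, a mark that loosens the packing of nucleosomes. It works in the MSL complex and in the NSL complex, and the NSL complex is known for binding at the promoters of housekeeping genes. GATA1 is the master transcription factor of the erythroid and megakaryocyte lineages and binds mostly at distal elements.

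The wild-type only sites with the highest values at gene starts show what kind of sequence was listed in wild-type MEP alone. The 250 bases before the annotated start are printed for the 6 highest whose summit lay within a 300-base promoter window (RefSeq, GRCm38.p6), 5′ to 3′ on the strand of the gene. Capitals mark the motifs that were searched on both strands. For ETS family factors these were ACTTCCGG or CCGGAAG, which overlap one another. The respiratory factor NRF1 was searched as GCATGCGC and the initiator-binding factor YY1 as GCCATCTT. The NFY complex was searched as its box CCAAT. The zinc finger factors of the SP and KLF families were searched as the hexamer GGGCGG. For the cyclic AMP response element, or CRE, the letters were TGACGT. For the E-box of basic helix-loop-helix proteins such as MYC they were CACGTG. The core promoter box called TATA was searched as TATAAA in any position. The erythroid GATA factors were searched as AGATAA, without other spellings. A match is a description of the letters and not a binding site.
Srsf1, chr11:88047123-88047372, plus strand: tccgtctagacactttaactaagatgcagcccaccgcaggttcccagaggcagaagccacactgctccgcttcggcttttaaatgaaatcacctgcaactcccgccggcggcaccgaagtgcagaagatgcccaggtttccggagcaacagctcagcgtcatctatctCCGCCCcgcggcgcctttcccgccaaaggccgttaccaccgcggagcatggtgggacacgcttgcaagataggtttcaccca
Smarca5, chr8:80739460-80739709, minus strand: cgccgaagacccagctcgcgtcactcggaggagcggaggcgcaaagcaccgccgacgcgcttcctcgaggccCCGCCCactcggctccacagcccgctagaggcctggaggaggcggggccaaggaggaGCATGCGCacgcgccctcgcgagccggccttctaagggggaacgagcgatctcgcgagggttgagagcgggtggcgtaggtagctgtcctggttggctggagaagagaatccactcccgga
Camsap1, chr2:25983283-25983532, minus strand: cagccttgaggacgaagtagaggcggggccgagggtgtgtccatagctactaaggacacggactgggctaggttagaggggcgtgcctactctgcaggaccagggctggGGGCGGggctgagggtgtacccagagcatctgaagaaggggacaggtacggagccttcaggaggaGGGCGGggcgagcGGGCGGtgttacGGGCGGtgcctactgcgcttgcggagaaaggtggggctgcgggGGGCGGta
Nol11, chr11:107189382-107189631, minus strand: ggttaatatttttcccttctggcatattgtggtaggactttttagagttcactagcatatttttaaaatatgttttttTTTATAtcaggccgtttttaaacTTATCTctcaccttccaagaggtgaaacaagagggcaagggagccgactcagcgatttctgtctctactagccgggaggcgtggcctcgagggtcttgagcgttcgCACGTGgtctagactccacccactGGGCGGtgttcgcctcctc
Ddx5, chr11:106788495-106788744, minus strand: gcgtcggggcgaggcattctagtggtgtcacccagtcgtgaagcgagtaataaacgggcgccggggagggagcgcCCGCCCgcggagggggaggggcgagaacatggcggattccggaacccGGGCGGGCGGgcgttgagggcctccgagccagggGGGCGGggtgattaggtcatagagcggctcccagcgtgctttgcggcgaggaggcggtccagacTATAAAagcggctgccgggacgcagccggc
Pcbp2, chr15:102470289-102470538, plus strand: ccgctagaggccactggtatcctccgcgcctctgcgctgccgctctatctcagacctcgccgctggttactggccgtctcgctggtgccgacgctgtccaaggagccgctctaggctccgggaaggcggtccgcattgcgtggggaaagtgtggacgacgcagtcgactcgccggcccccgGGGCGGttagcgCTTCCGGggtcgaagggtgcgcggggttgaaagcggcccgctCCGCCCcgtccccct

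All but the Nol11 sequence, at 46.8% G and C, were rich in G and C, from 58.8% at Srsf1 to 70.4% at Pcbp2. Each held the SP/KLF hexamer at least 1 time, and Camsap1 held it 5 times. Smarca5 had an NRF1 match 121 bases before the start, Pcbp2 an ETS match 57 bases before it, Nol11 an E-box 43 bases before it and Ddx5 a TATA match 30 bases before it. The summits lay 42 bp downstream of the start at Srsf1, 6 bp upstream at Nol11, 156 bp upstream at Camsap1, 174 bp upstream at Smarca5 and 203 bp upstream at Ddx5 and Pcbp2. Since the 6 were chosen from wild-type only sites, none of their sites overlapped a heterozygous interval by selection.

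Of the 829 wild-type sites, 807 had no heterozygous interval (97.3%, 96 to 98.2), which is the background against which every group below is read. Only 22 were called again (2.65%, 1.76 to 3.99). In the other direction, 37 of 59 heterozygous intervals had no wild-type summit (62.7%, 50 to 73.9). Not all 37 were separate places, since 7 of them lay within 5 kb of a shared wild-type summit. The overlap rule itself keeps shared summits near each other. Their median gap was 19.5 bp, with 17 of 22 within 50 bp and the farthest at 220 bp. Wild-type only sites have no overlap by the same rule. Of the 772 outside the GATA1 list, 0 lay within 5 kb of a heterozygous interval and 3 within 50 kb.

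Shared sites had higher peak values and were mostly regions that the GATA1 library also called. The peak value is the authors' −log10 value of a peak, read here as a −log10 q. Its median was 31 for the 22 shared sites (6.33 to 202) and 5.29 for the 807 wild-type only sites (1.35 to 79.8). A GATA1 interval of HPC7 overlapped 20 of 22 shared sites (90.9%, 72.2 to 97.5) and 35 of 807 wild-type only sites (4.34%, 3.13 to 5.97). GATA1 was mapped with another antibody in another cell line, so regions bound by both proteins and regions that many libraries call cannot be told apart here. Of the shared sites 10 were in all 5 lists and 18 in at least 4. Outside the GATA1 list 2 of 774 wild-type sites were called again (0.258%, 0.0709 to 0.937).

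**Figure D1:**
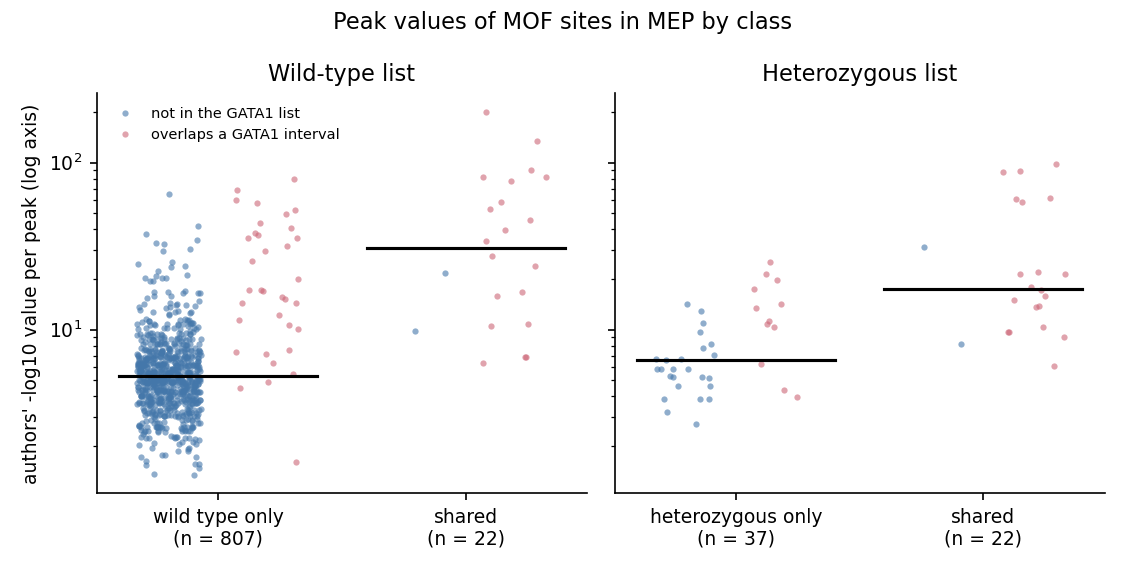
Authors' −log10 value of each region (log axis) in the wild-type list (left) and the heterozygous list (right), by class. Points are regions, red where a GATA1 interval overlapped, and black lines are class medians: 5.29 for wild type only, 31 for shared wild-type sites, 6.59 for heterozygous only and 17.6 for shared heterozygous intervals.

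The GATA1 mark went with being called again also among sites of like value. For values from 5 to below 10, 3 of 8 marked and 1 of 337 unmarked sites were called again. From 10 to below 20 the counts were 4 of 15 marked and 0 of 60 unmarked sites. From 20 to below 50 they were 5 of 16 marked (31.2%, 14.2 to 55.6) and 1 of 18 unmarked sites (5.56%, 0.988 to 25.8), whose intervals overlap. Several of these 18 and some of the 16 lay in 1 stretch of a chromosome, described with the HSC lists below. The intervals count such neighbours as separate sites, so this band rests on fewer places than the counts show. Below 5, none of 361 wild-type sites was called again, and with 50 or more 8 of 14 were (57.1%, 32.6 to 78.6). In that highest band 13 of the 14 sites were GATA1-marked, which leaves 1 unmarked site, too few to compare. The 8 called again were all among the 13.

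**Figure D2:**
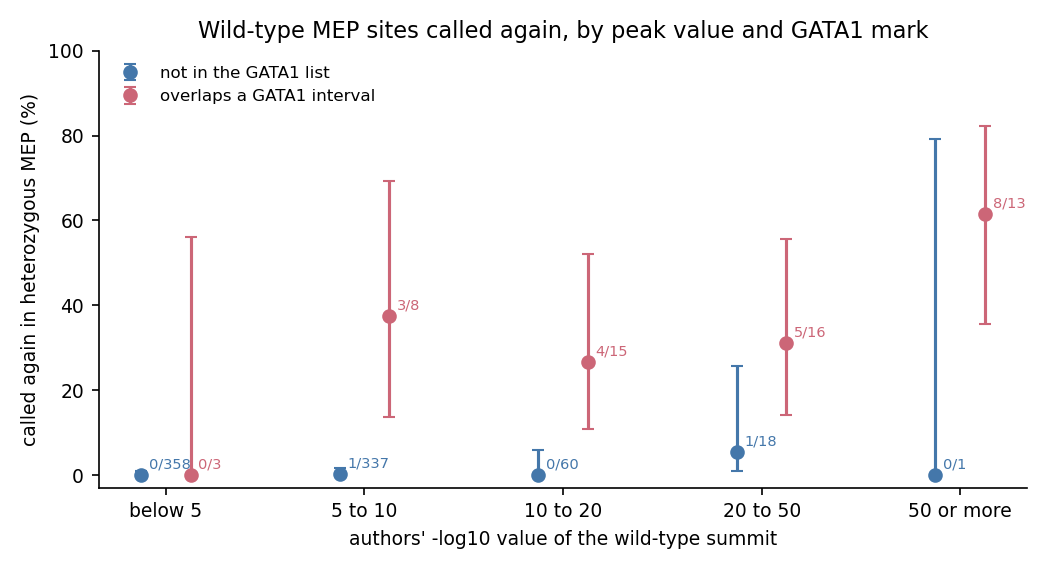
Percent of wild-type MEP sites called again in heterozygous MEP by the authors' −log10 value, with 95% Wilson intervals, for sites in and outside the GATA1 list. The counts beside the points show that 2 of 774 unmarked and 20 of 55 marked sites were called again.

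Sites at gene starts made up most of the wild-type list and were almost never called again. Within 1 kb of the start of a protein-coding gene lay 425 of 807 wild-type only sites (52.7%, 49.2 to 56.1), 1 of 22 shared sites and 0 of 37 heterozygous only intervals (0%, up to 9.41%). Such windows cover 2.03% of the annotated span. A heterozygous interval lay over 1 of 426 wild-type sites at gene starts (0.235%, 0.0414 to 1.32), 13 of 181 in gene bodies (7.18%, 4.25 to 11.9) and 8 of 222 outside genes (3.6%, 1.84 to 6.95). The median value of wild-type only sites was 5.27 at gene starts, 4.96 in gene bodies and 5.85 outside genes. Their highest values were 16.8, 37.3 and 79.8 in the same order, so no wild-type only site at a start reached the range in which sites were called again most often. Without the GATA1-marked sites the counts called again were 0 of 425 at gene starts (0%, up to 0.896%), 2 of 165 in bodies (1.21%) and 0 of 184 outside genes, with overlapping intervals.

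The summits at starts were centred just upstream. For 350 of the 425 the promoter table gives the strand of the gene, and for the other 75 either end of the gene served as the start. The median position of the 350 was -65.5 bp, where minus is upstream, 223 of them lay upstream (63.7%), and 300 lay within 300 bp of the start (85.7%). A pair of genes that start in opposite directions shared 51 of these sites. Among genes with a site at the start 26.8% belonged to such a pair, against 9.73% of all genes with a known strand.

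**Figure D3:**
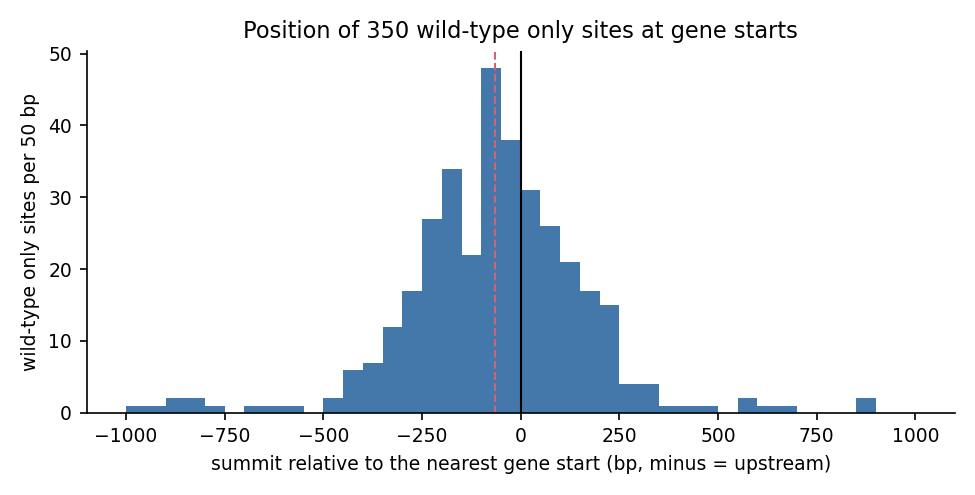
Summit position of the 350 wild-type only sites within 1 kb of a gene start of known strand, in bins of 50 bp. The dashed line is the median of -65.5 bp, and 300 of the sites lie within 300 bp of the start.

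Promoters with a wild-type only summit were richer in CpG and in several motifs of housekeeping promoters than promoters at large. The 207 summits inside a promoter window fell in 225 windows of 221 genes, and 0 shared summits did. Their median G and C content was 62%, against 56.7% in all 21045 protein-coding promoters, and the median ratio of observed to expected CpG was 0.855 against 0.574. The SP/KLF hexamer was in 70.2% (46.7% of all), the ETS motif in 22.7% (11.7%), CRE in 18.7% (8.58%), NRF1 in 9.33% (3.54%) and YY1 in 7.11% (3.07%). The E-box was in 11.6% (7.91%). The NFY motif CCAAT was in 35.6% (38.5%), TATA in 8% (12.7%) and the GATA motif in 3.56% (9.68%). Histone promoters differed from the rest: all 12 with a summit held CCAAT (83.3% of the 72 histone promoters in the table did) and 6 held TATA (51.4% of the 72). The ETS, CRE, NRF1, SP/KLF and E-box motifs contain CG. How far the CpG content of these promoters accounts for the shares of these motifs was not tested.

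By gene, 876 of 21631 protein-coding genes (4.05%) had a wild-type site within 5 kb, and 861 of these (98.3%) had no heterozygous interval within 5 kb. At the start itself 493 genes had a site (2.28%), and Kat8 was the gene among them with a heterozygous interval at its start. The 15 genes with a region in both genotypes were Bckdk, Camk1d, Cdk8, Cmss1, Cntnap5b, E030030I06Rik, Filip1l, Jarid2, Kat8, Lars2, Numa1, Peak1, Prss8, Sfi1 and Zc3h7a. In Sfi1 the wild-type and heterozygous regions lay at different positions. Since nearly every gene belonged to the group without a heterozygous interval, the functions of these genes are those of the wild-type list, and a list's count is read against 4.05% and 98.3%. One site can count for several neighbouring genes.

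Genes that package DNA were the most frequently listed. Of 77 histone genes, 53 had a wild-type site (68.8%), and 0 had a heterozygous interval. Only 34 sites stood behind the 53 genes, since histone genes are clustered, and 37 genes had a site at their start. The median value of the 34 sites was 6.02, against 5.38 for all wild-type sites. The highest were at the H4 genes H4c17 (chr13:21811750-21812050, value 16) and H4c18 (chr13:21831928-21832228, 13.7), at the H2A genes H2ac19 (chr3:96240022-96240322, 11.5) and H2ac18 (chr3:96245427-96245727, 10.9), and at the linker histone gene H1f2 (chr13:23738776-23739076, 10.8). Wild-type HSC had 18 of the 34 sites in common and heterozygous HSC 1. Of all wild-type only sites 29.7% were called in wild-type HSC and 7.93% in heterozygous HSC. At gene starts these shares were 38.8% and 1.88%, so few or no calls in heterozygous HSC are common to sites at starts.

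Histone sites also lay in runs, taken as at least 4 wild-type only sites with gaps of at most 50 kb. On chromosome 13, 9 sites within 68.5 kb touched 15 histone genes (values 3.68 to 7.16), 7 within 78.2 kb touched 13 (2.04 to 10.8), 6 within 79.6 kb touched 12 (3.25 to 16) and 5 within 67.9 kb touched 5 (2.07 to 10.1). On chromosome 3, 4 sites within 23.1 kb touched 5 histone genes (5.52 to 11.5). The run of 9 sites was also counted with 8 tRNA genes and the run of 5 sites with 10, so not every site there need belong to a histone gene. None of these 5 runs held a heterozygous interval. Core histone genes are near-identical copies, and the treatment of reads matching several copies is not stated. The assignment to 1 copy is therefore uncertain.

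Among genes of protein synthesis, those for ribosomal proteins had the highest share. Of 86 cytosolic ribosomal protein genes, 19 had a wild-type site (22.1%), 15 of them at the start, and 0 had a heterozygous interval. Rpl41 had the highest value (9.59). Rps23 (6.77) and Rpl27 (6.67) were among the others. The median value of this list was 3.87, below the 5.38 of all wild-type sites. Of their 19 sites 10 were also called in wild-type HSC and 0 in heterozygous HSC. For all wild-type only sites at gene starts the shares were 38.8% and 1.88%.

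Translation factor genes with a site were 8 of 71, 0 of them with a heterozygous interval. They included Eif4a3, an RNA helicase of the exon junction complex (10.8), and Eif1, which guards start codon choice (8.25). Others were the RNA helicase gene Eif4a1 (7.22) and the elongation factor gene Eef1a1 (6.74), whose site lay outside the gene. Ribosome biogenesis genes were 6 of 48, all without a heterozygous interval. Among these were Nop14 (7.73, nearer to Grk4), the rRNA methyltransferase gene Fbl (7.62), Noc2l (5.29) and the nucleolin gene Ncl (4.54). Of 104 genes of mitochondrial translation 9 had a site, and 1 of these 9, Lars2, kept a called region. Mtrf1l, a release factor (8.42), and the ribosomal protein genes Mrpl54 (8.37) and Mrpl34 (8.06) were the highest of the 8 others.

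RNA processing genes included the highest wild-type only site at a gene start. Of 91 genes for splicing factors and hnRNP proteins 12 had a site, 10 at the start, and 0 had a heterozygous interval. Srsf1, a founding SR protein of splice site choice, reached 16.8 (chr11:88047265-88047565) and Srsf2 9.45. The site counted for Hnrnpu (11.3, chr1:178318717-178319017) lay at the start of Cox20. Against 38.8% and 1.88% of all wild-type only sites at gene starts, 8 of the 12 sites were called in wild-type HSC and 0 in heterozygous HSC. Another 3 genes of RNA biology, outside this list, were among the 20 highest at gene starts: Ddx5, an RNA helicase gene whose site lies where it overlaps Cep95 (12.6), Pcbp2, a poly(C)-binding protein gene (11.2), and Ints7, an Integrator subunit gene that shares its start region with Dtl (11.6).

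Transcription and chromatin genes also had sites. Of 101 genes for RNA polymerase II, general factors and Mediator, 8 had a site (7.92%), and Cdk8, a Mediator kinase, was the 1 of these 8 with a heterozygous interval. Taf12 (12.7, a site 4.23 kb outside the gene and inside the snRNA gene Rnu11), Ell (7.62) and Polr2a, the largest polymerase subunit gene (7.16), had none. Of 140 chromatin modifier and remodeller genes 15 had a site (10.7%), 11 at the start, and Jarid2 was the 1 with a heterozygous interval. The highest without one were the ISWI remodeller gene Smarca5 (15.9, chr8:80739483-80739783), Brpf1, a scaffold of MYST acetyltransferases (14.3, chr6:113306558-113306858), Ep400, the motor of the TIP60 complex (10.9, chr5:110770659-110770959), and Ing5 (7.51). Kat7, the MYST relative of Kat8, had a site of 5 and is named after its value was seen.

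Subunits of the MOF complexes are encoded by 12 genes of a further list, and Kat8 and Phf20 among them had a wild-type site. Phf20, an NSL subunit, had a value of 8.42 in wild-type MEP, 157 bp from its start, and was called neither in heterozygous MEP nor in HSC of either genotype.

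Of the 20 highest wild-type only sites at gene starts, the ones not yet named were at Tmem259 (14, chr10:79984510-79984810), the microtubule gene Camsap1 (12.9), the nucleolar gene Nol11 (12.8), Irf9, a transcription factor of the interferon response (10.8, chr14:55604041-55604341), Phf23 (10.8) and Cdk2ap2 (10.6). Tmem259 and Irf9 were also called in wild-type HSC, the other 4 were not, and none was called in heterozygous HSC.

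The remaining housekeeping lists were small. Sites were counted for 5 of 32 chaperone genes, all at the start, among them the chaperonin gene Cct5 (8.95, nearer to Atpsckmt), Hspa4 (6.91) and Hspa8 (6.78), for 4 of 43 proteasome genes, led by Psmd5 (9.09), and for 5 of 51 nuclear pore and transport genes, led by Rcc1 (6.87), the exchange factor of Ran. None of these chaperone, proteasome or nuclear pore genes had a heterozygous interval. DNA replication and repair genes with a site were 10 of 106, led by the primase subunit gene Prim2 (8.77), Mdc1 (6.36), Fancm (6.28, nearer to Fkbp3) and Ercc3 (5.02), and 0 had a heterozygous interval. Cell cycle genes were 8 of 87, among them Trp53 (5.88), Cdk4 (5.76) and Aurkb (5.04), and the spindle gene Numa1 was the 1 with a heterozygous interval. Genes of mitochondrial respiration with a site were 2 of 87 and cytosolic aminoacyl-tRNA synthetase genes 1 of 20 (5%).

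Lineage genes with a site had no heterozygous interval, as for 98.3% of all genes with a site. Erythroid genes were 4 of 38: the transferrin receptor gene Tfrc (8.35, chr16:32608891-32609191), Zfpm1, which encodes the GATA1 cofactor FOG1 (8.28), the carbonic anhydrase gene Car1 (7.56) and the spectrin gene Sptb (4.31). The sites of Tfrc, Zfpm1 and Car1 were at their starts, and only that of Zfpm1 was also in wild-type HSC. Haem and iron genes were 4 of 34, among them Tfrc again, Glrx5 of iron-sulphur cluster assembly (4.86) and the ferritin gene Ftl1 (2.27). Megakaryocyte genes were 0 of 20. Markers of other cells were 1 of 30 for stem cell genes (Etv6, 2.52), 3 of 20 for myeloid genes (Fcgr3 7.03, Cebpe 6.8 and Cd68 4.13), 1 of 20 for lymphoid genes (Rag2, 4.43, nearer to Iftap), 0 of 10 for mast cell and basophil genes and 0 of 12 for stromal and endothelial genes. The shares of 10.5% for erythroid, 11.8% for haem and iron and 15% for myeloid genes lie above the 4.05% of all genes. They rest on only 4, 4 and 3 genes. Of the myeloid genes 0 had a site at the start. The Fcgr3 site lay in the gene body and the Cebpe site 4.29 kb outside the gene. The site counted for Cd68 lay inside Mpdu1, 101 bp from the start of Mpdu1.

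**Figure D4:**
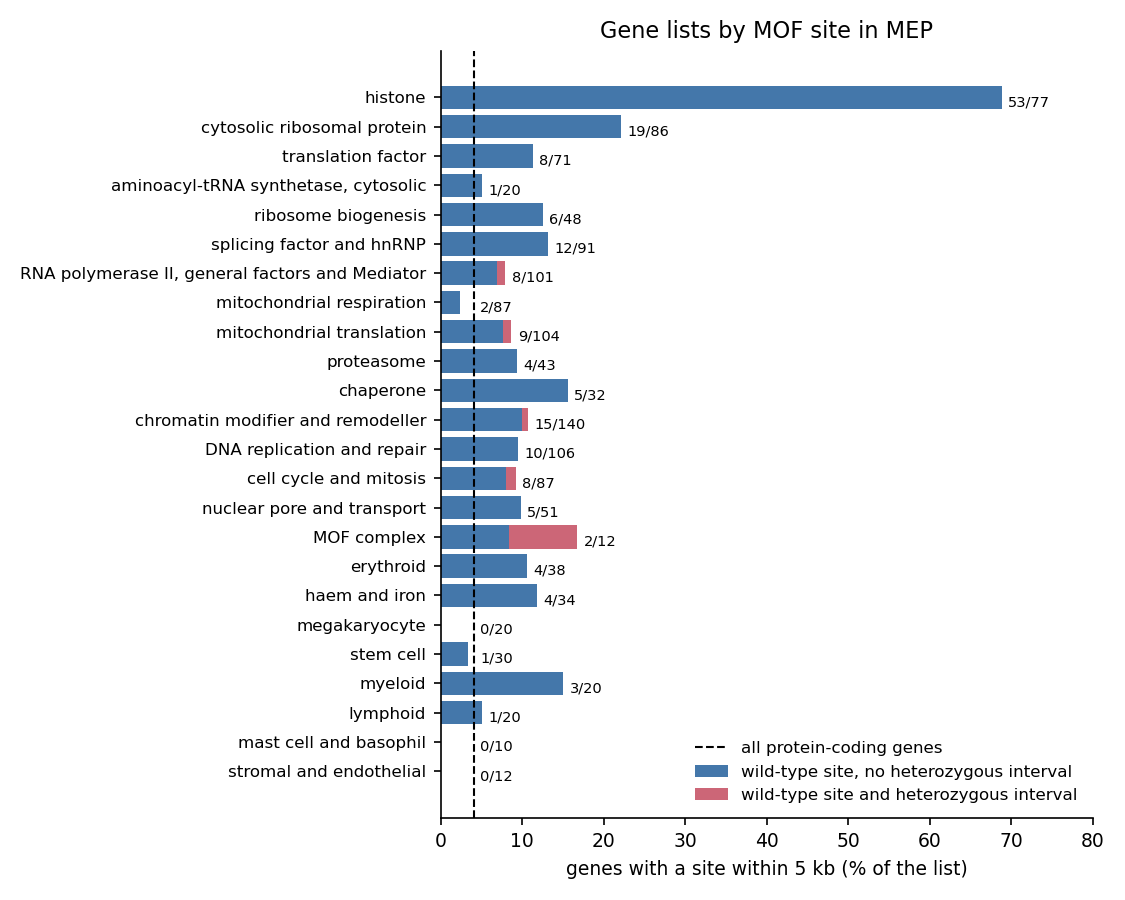
Percent of the genes of each list with a wild-type MEP site within 5 kb, divided into genes without (blue) and with (red) a heterozygous interval there. Counts stand beside the bars, and the dashed line is the 4.05% of all protein-coding genes, which histone genes (53 of 77) exceeded by the widest margin.

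Some tRNA and snRNA genes also lay near wild-type sites. Within 500 bp of a site lay 34 of 408 tRNA genes (8.33%, 24 sites, median value 5.03) and 27 of 1003 snRNA genes (2.69%, 27 sites, median 9.61), and 0 of either kind lay near a heterozygous interval, where 97.3% of all wild-type sites had none. The median of the snRNA sites was above the 6.02 of histone and the 3.87 of ribosomal protein sites. Against 29.7% and 7.93% of all wild-type only sites, 19 of the 27 snRNA sites were called in wild-type HSC and 0 in heterozygous HSC. Some gathered in 3 runs: 6 sites on chromosome 11 near Tex14 and the Rnu3b genes (6.17 to 21.1), 6 on chromosome 12 near Eapp (3.91 to 14.5) and 5 on chromosome 11 that include Rnu2-10 (2.63 to 23.7). RNA kinds are those of the gene annotation, which files the Rnu3b genes as snRNA, and other groupings would move these shares. At the same window the shares were lower for snoRNA (5 of 1340, 0.373%), miRNA (4 of 1228, 0.326%) and rRNA genes (1 of 63, 1.59%). None of these genes with a site had a heterozygous interval. The share of protein-coding genes at this window was not computed. Within 1 kb of a start it was 2.28%, near the snRNA share. Genes for small RNAs too have near-identical copies, with the uncertainty given for histones. The histone runs of 9 and 5 sites on chromosome 13 were counted with 8 and 10 tRNA genes, so the histone and tRNA results overlap in place.

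The sites called again form a short list, and Kat8 holds 4 of the 22. Kat8 spans 13322 bp on the plus strand of chromosome 7 (chr7:127912517-127925838). In wild-type MEP its summits had values of 78.1, 58.2, 24.2 and 135 at 137, 2920, 7995 and 12138 bp from the start of the gene. In heterozygous MEP the intervals at these places had −log10 q values of 88.7, 98.4, 88.3 and 58.5 with 7-, 11.6-, 14.5- and 6.56-fold enrichment, and they ranked 2, 1, 3 and 6 of the 59. A further heterozygous interval with its summit 9687 bp from the start (17.5, 7.63-fold) had no wild-type summit. The GATA1 list had 5 intervals over the same 5 places, whereas wild-type HSC had 3 and heterozygous HSC 1. What gives Kat8 a region in a library for a different protein was not tested. Values of the heterozygous and wild-type lists come from separate calls, so their sizes were not compared.

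**Figure D5:**
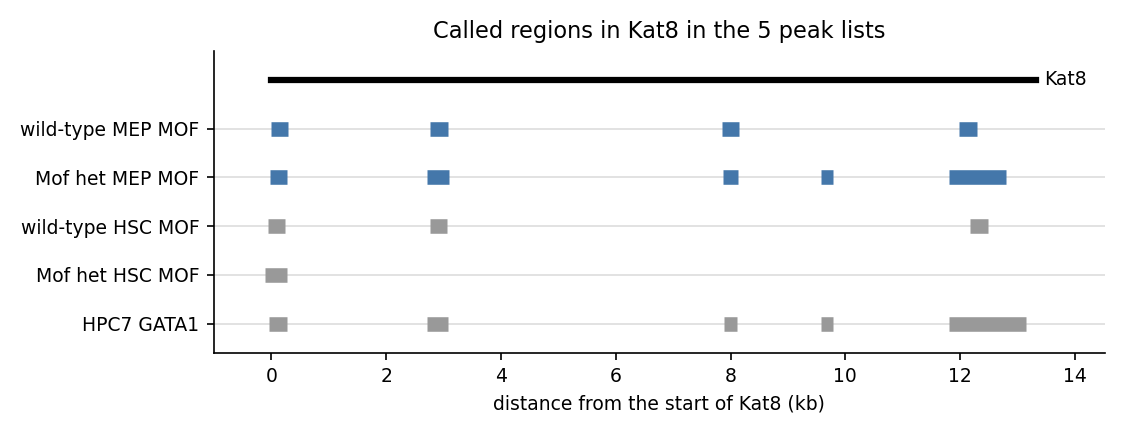
Called regions in Kat8 by distance from the start of the gene, drawn to scale for the 5 peak lists, with wild-type summits widened to 301 bp. Wild-type MEP has 4 regions and heterozygous MEP 5, which lie over the 5 GATA1 intervals of HPC7.

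The other 18 shared sites lay in gene bodies or far from genes. The highest, in both heterozygous libraries and the GATA1 list too, was in the non-coding gene Gm34259, 368 kb from Arid1b (202 in wild type, 60.4 in the heterozygote). In gene bodies were Numa1, a spindle organiser (82 and 61.7, 9.65-fold), Lars2, the mitochondrial leucyl-tRNA synthetase gene (39.4 and 9.06), Cdk8 (34.2 and 21.6), the overlapping genes Cmss1 and Filip1l (45.4 and 22.2), Zc3h7a (16.9 and 13.9), Jarid2, a PRC2 cofactor gene (15.9 and 17.3, 11.3-fold), Peak1 (10.8 and 9.7) and E030030I06Rik (6.84 and 13.6). Outside genes were a site 61.1 kb from Axin2 (90.7 and 15), a ribosomal RNA repeat 103 kb from Esp38 (82.3 and 6.1), sites 282 kb from Pex2 (52.7 and 15.9) and 373 kb from Csmd1 (6.83 and 21.7), a pair near Ly6c2 (27.8 and 10.4, and 10.5 and 17.9) and a site 117 kb from Vmn1r238 (6.33 and 9.75).

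Of the 22 shared sites, 2 did not overlap a GATA1 interval. One lay in Camk1d, a calmodulin-dependent kinase gene (chr2:5379142-5379442). Its wild-type value was 21.9, its heterozygous −log10 q was 31.1 with the highest fold enrichment of the heterozygous list (16.8), and it was in no other list. The other lay in Cntnap5b (chr1:100180083-100180383, 9.89 and 8.18, 9.31-fold) and was also called in wild-type HSC.

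The heterozygous only intervals were placed much as the annotated span is divided. None was within 1 kb of a gene start, 13 lay in gene bodies (35.1%) and 24 outside genes (64.9%). These places make up 2.03%, 38.1% and 59.8% of the span, so the split is near that of the span itself. GATA1 intervals overlapped 12 of the 37 (32.4%, 19.6 to 48.5), and 25 were in no other list. In the GATA1 list the highest lay in Kctd16 (25.4, 4.91-fold), 118 kb from Vmn1r238 (21.6), in the ribosomal RNA repeat (19.9), at the further Kat8 position (17.5) and in Aida (14.2). Outside the GATA1 list the highest were near Gm15319 (14.2, 10.9-fold), in Bckdhb, a subunit of branched-chain ketoacid dehydrogenase (13, 11.4-fold), a second one near Gm15319 (10.9) and one 145 kb from Sgo2b (9.74). On chromosome 8 between 19972369 and 20637895 lay 7 of the 37, in a stretch with 1 wild-type site, and 4 lay in the ribosomal RNA repeat on chromosome 17. The other named genes in whose bodies such an interval lay were Sfi1 (7.72), Fstl1 (6.66), Arhgap21 (6.25), Gm21119 (5.3), Tmem132d (5.24), Wdr25 (5.24), Frmpd1 (4.62), Commd10 (3.86) and Gm3248 (3.83). The remaining ones lay outside genes, nearest to Marcks, P4ha2, Dlk1, Zfp386, Gdi2, Serpinb1b, Gm5458, Ly6c2, Kazn, Strip2, Gdf3, Arrdc4, 9530057J20Rik and Gm40469, with values from 2.72 to 13.4.

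Stem cells of the same genotypes show which of the wild-type only sites were called elsewhere. Of the 807 sites, 240 were called in wild-type HSC (29.7%, 26.7 to 33), 64 in heterozygous HSC (7.93%, 6.26 to 10) and 529 in no other list (65.6%, 62.2 to 68.7). Of the 240, 30 were also called in heterozygous HSC (12.5%, 8.9 to 17.3). At gene starts 165 of 425 were called in wild-type HSC (38.8%, 34.3 to 43.5) and 8 in heterozygous HSC (1.88%, 0.957 to 3.67). Outside genes the shares were 22.4% (17.4 to 28.5) and 18.7% (14 to 24.4). Without the GATA1-marked sites the shares outside genes were 21.2% (39 of 184, 15.9 to 27.7) and 7.61% (14 of 184, 4.59 to 12.4). The HSC lists differ in length (1839 wild-type and 248 heterozygous regions), which moves these shares.

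Some of the highest wild-type only sites were called in heterozygous HSC. Among the 10 highest that lay over 1 kb from a gene start and outside the GATA1 list, all were called there. These were a site 25.5 kb from Col19a1 (65.2), sites in Myo3a (37.3) and Cpeb4 (25.5), and 7 on chromosome 6 between 47655229 and 47772300. That stretch held 16 wild-type only sites in runs of 8 and 8, next to Pdia4 and the predicted genes Gm40363 to Gm40369, with values from 8.23 to 41.6 and 0 heterozygous MEP intervals. Of the 16, 15 were called in heterozygous HSC and 12 in wild-type HSC, and 3 overlapped a GATA1 interval. Summits there lay at near-even steps, as at 47655229, 47659571, 47663895 and 47668235. Whether the stretch is a repeated sequence was not tested, and its sites may not be separate places. Of the 35 GATA1-marked wild-type only sites 31 were called in heterozygous HSC as well, against 33 of 772 unmarked ones (4.27%, 3.06 to 5.94). The heterozygous MEP list thus lacked regions that the other heterozygous library called, and the part of library depth or quality in this was not tested.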

How the data were processed

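Bowtie2 2.3.0.1, MACS2, deepTools and the build mm10 are named per the submitters' processing notes. Not given in the sources used here: tool settings, duplicate and multi-mapping filters, the input used as background and read depth. The wild-type lists the authors deposited hold 1-bp summits with a −log10 value per peak, whose minimum of 1.35 in MEP lies just above 1.3, the −log10 of 0.05, and which was read as −log10 q. The heterozygous lists the authors deposited hold intervals with fold enrichment, −log10 p, −log10 q (minimum 2.72) and a score equal to the whole part of 10 times the −log10 q. The deposited GATA1 list holds intervals without values. Peak values were used only to rank and describe peaks within a list.

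Overlaps, gene distances and motif counts were computed in Python 3.11.15 with pandas 2.3.3, and the overlap and distance functions were tested on simulated intervals. Wilson intervals came from statsmodels 0.14.6. Genes were the 21631 protein-coding genes of RefSeq GRCm38.p6. Of these 17274 had starts with strand in the promoter table, and for the other 4357 both gene ends were used. Coordinates are 1-based on mm10. The 24 gene lists and the regions were chosen with earlier results of these data known. The text names every shared site and heterozygous only interval, the 20 highest wild-type only sites at gene starts and the 10 highest farther away (without GATA1-marked ones), up to 4 genes per list and 6 promoters. Some items that this rule selects are not reported here.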

Additional observations from a re-analysis of the deposited data

How the results depend on the processing

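With 1 library per genotype no replicate could be left out, and no paired analysis was possible because each group holds 1 sample. The share of wild-type sites called again, 2.65%, was 5.29% for summits at or above the median value of the wild-type list, 14.6% for values of 10 or more and 0.258% without sites that overlap a GATA1 interval. It ranged from 2.17% to 3.01% with the summit alone, a 500 bp extension, an overlap of at least 100 bp, the stronger heterozygous intervals or every chromosome and scaffold. The share of heterozygous intervals with no wild-type summit, 62.7%, was 92.6% (25 of 27) without the GATA1-marked regions and 57.8% to 64.4% otherwise. The share of wild-type only sites at a gene start was 60.8% with a 5 kb window, and 49.6% to 55.1% with 500 bp, stronger summits or no GATA1-marked sites. The 861 genes without a heterozygous interval became 1379 with a window of 20 kb and 422 with summits at or above the median value, since those settings add or drop genes, and 691 with 1 kb. The share called in wild-type HSC stayed between 29.7% and 32%. For the single gene lists, 72 of 96 counts stayed within 1.5 times the value reported, and histone genes did so at every setting (38 to 64 genes). Unknown depth limits every statement about a site that was not called.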

Other observations

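Regions were left out of both MEP lists. Of the 69 wild-type MEP summits left out (of 898), 25 lay in the first 4 Mb of chromosome 9, 11 on Y, 1 on the mitochondrial genome and 32 on scaffolds, with values up to 94.2. Of the 5 heterozygous MEP intervals left out (of 64), 2 lay at the start of chromosome 9 and 3 on scaffolds, with values up to 9.69. The heterozygous HSC list had 90 of its 338 regions in these places, 35 of them at the start of chromosome 9, 10 on Y, 10 mitochondrial and 35 on scaffolds.

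Long non-coding genes were also near wild-type sites. Within 500 bp of a site lay 122 of 12697 lncRNA genes (0.961%), from 120 wild-type only and 3 shared sites, and 3 of these 122 genes also had a heterozygous interval. Of the 120 wild-type only sites 43 were called in wild-type HSC and 5 in heterozygous HSC, against 29.7% and 7.93% of all wild-type only sites. The only rRNA gene within 500 bp of a wild-type only site had a site of 24.2 that was called in HSC of both genotypes. This was the site in Gm40369, in the stretch of chromosome 6 described above, and not a separate place.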
